A study of Homo sapiens with 8 samples.

Results

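The nuclear-encoded genes of the respiratory chain and of ATP synthase were followed in H9, an embryonic stem cell line of human origin, across 8 polyA RNA libraries. Members were chosen by symbol: the NDUFA, NDUFB, NDUFC, NDUFS, NDUFV and NDUFAB1 genes, SDHA to SDHD, CYC1 and the UQCR genes, the COX4 to COX8 subunits and the ATP5 genes, with pseudogenes, antisense genes and 2 readthrough transcripts set aside. This gave 91 genes of 45961 in the table. Of them, 37 were in complex I, 4 in complex II, 10 in complex III, 19 in complex IV and 18 in complex V. The other 3, ATP5IF1, ATP5S and DMAC2, carry an ATP5 name but are not subunits. DMAC2 is listed under that symbol and was taken in by an ATP5 synonym. NDUFA4 and NDUFA4L2 carry complex I names and are counted in complex IV. Of the 91, 83 had a mean of at least 1 FPKM and were tested, and 8 lay below that filter. FPKM scales the fragments of a gene by transcript length and by the mapped fragments of the library, so levels can be compared between genes.

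The libraries fall into 4 groups of n = 2, namely co-culture on day 1 (D1_Co), day 2 (D2_Co) and day 3 (D3_Co) and separate culture on day 3 (D3_Control). "Co" is read as co-culture from the library titles, and neither the partner cells nor their removal is described in the sources used here. All libraries come from the same line, described as primed pluripotent cells grown either on Matrigel in mTeSR1 or on inactivated mouse fibroblasts with FGF2 and IWR1, an inhibitor of WNT signalling. The sources used here do not tie either culture to single libraries. Only D3_Co against D3_Control is matched by day, and the study asks about competition between cells of distant species. D1_Co and D2_Co against D3_Control mix day with culture, which cannot be told apart, and comparisons that name the same group share its libraries. The labels do not say that the libraries of a group came from separate cultures, so the spread behind each p-value may be technical. In bulk RNA, fewer cells of a type and less RNA per cell cannot be told apart.

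Complex I passes electrons from NADH to ubiquinone, complex II passes them from succinate, complex III hands them on to cytochrome c, and complex IV, cytochrome c oxidase, reduces oxygen. Complexes I, III and IV pump protons across the inner mitochondrial membrane, and complex V uses that gradient to make ATP. Most subunits come from nuclear genes and some core subunits of complexes I, III, IV and V from mitochondrial DNA. Primed human pluripotent stem cells are known for a strong reliance on glycolysis while they keep a working respiratory chain.

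Many deposited values stood on the rows of other genes and were returned to their own before use. A value was moved for 37 of the 91 members. By complex these were 11 of 37, 3 of 4, 3 of 10, 7 of 19 and 12 of 18 in complexes I to V. Of the 91, 2 members with no moved value, NDUFB6 and ATP5MC3, had a placement that shifted when the search was disturbed. The FPKM of a library added up to 421825 to 440675, and the read depth is unknown. All 8 pluripotency markers were detected, with POU5F1 between 722 and 811 FPKM in every library. Their summed level was 2254 to 2290 FPKM in D3_Co, against 2600 to 2684 FPKM in D3_Control. DNMT3B made the largest part of that gap, with 420.1 and 403.4 FPKM in D3_Co, against 651.9 and 663.0 FPKM in D3_Control. LIN28A, TDGF1, DPPA4, SOX2 and NANOG were also lower in both D3_Co libraries than in both controls. POU5F1 went the other way, with 811 and 779 FPKM in D3_Co, against 769 and 722 FPKM in D3_Control, and PODXL overlapped. Of 12 fibroblast markers, DCN and LUM were at 0 in all libraries. The summed fibroblast level was 443 to 458 FPKM in D3_Co, against 394 to 403 FPKM in D3_Control. THY1 was its largest part in every library and nearly level, at 274.9 and 272.5 FPKM in D3_Co, against 266.4 and 271.7 FPKM in D3_Control. Of the other tested fibroblast markers, COL1A1, COL1A2, FBLN1 and S100A4 were higher in both D3_Co libraries and PDGFRB lower. COL1A1 had 42.5 and 40.0 FPKM in D3_Co, against 27.6 and 28.8 FPKM in D3_Control. limma called 4 of the 6 tested fibroblast markers higher in D3_Co, and 3 of the 8 pluripotency markers lower. In D2_Co the fibroblast sum was 416 to 423 FPKM, against 393 to 404 FPKM in D1_Co, and the pluripotency sum 2199 to 2268 FPKM, against 2132 to 2150.5 FPKM in D1_Co. Of 3 neural markers NES, an intermediate filament gene, carried nearly the whole sum and differed in all 6 comparisons, with means of 153 FPKM in D1_Co, 215 in D2_Co, 187 in D3_Co and 134 in D3_Control, while PAX6 was at most at 0.215 FPKM and SOX1 at most at 0.013 FPKM. The sum of 3 mesoderm markers, mostly MIXL1, was 6.15 to 7.07 FPKM in D1_Co, 3.23 to 3.36 in D2_Co, 1.64 to 2.02 in D3_Co and 1.51 to 1.84 in D3_Control. That of 4 endoderm markers was 3.43 to 3.51, 2.55 to 2.88, 0.592 to 0.813 and 1.73 to 1.77 FPKM in D1_Co, D2_Co, D3_Co and D3_Control, and that of 4 trophoblast markers, with CGA at 0 throughout, 2.85 to 3.96, 4.82 to 6.83, 2.56 to 2.96 and 1.90 to 1.95 FPKM. The part of these shifts in the results below was not tested.

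Levels within a complex spanned a wide range. In complex I they ran from NDUFS5, an accessory subunit, at a mean of 229 FPKM over the 8 libraries, to NDUFA5, an accessory subunit of the arm that reaches into the matrix, at 7.38 FPKM. In complex II the iron-sulfur subunit SDHB was highest at 50.7 FPKM and the flavoprotein subunit SDHA lowest at 22.9 FPKM. In complex III, UQCRH, the hinge protein, lay at 172 FPKM and UQCRB at 16.4 FPKM. COX6B1 was the highest subunit of complex IV at 307 FPKM, and COX6C the lowest of those tested at 38.7 FPKM. In complex V the catalytic beta subunit ATP5F1B was highest at 378 FPKM and the stalk subunit ATP5PF the lowest of those tested at 56.3 FPKM. UQCRHL, a near-identical copy of UQCRH, was listed at 25.8 FPKM, and reads of such pairs may be split between them.

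**Figure D1:**
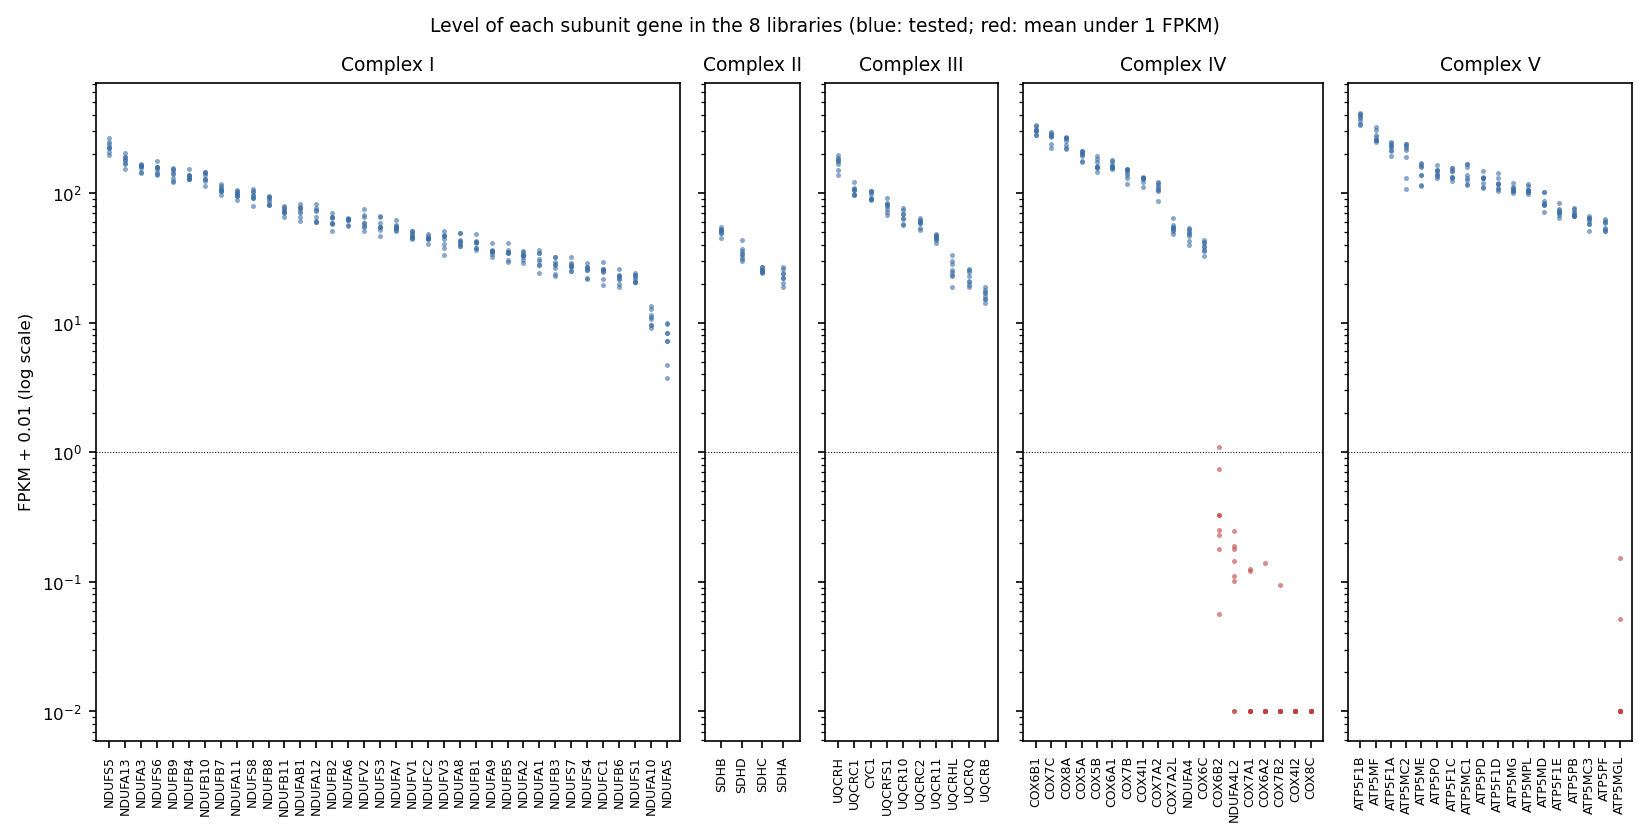
FPKM plus 0.01 on a log axis for the subunit genes (1 column a gene, 1 point a library), ordered by mean within complexes I to V. The 79 tested subunits drawn lie at 3.71 FPKM or above in every library, and 7 genes of complex IV and 1 of complex V lie around or under 1 FPKM.

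The alternative forms of complex IV subunits that are known from differentiated tissues were near 0. COX4I1, the ubiquitous form of subunit 4, averaged 127 FPKM, while COX4I2, known from lung, was listed at 0 in all 8 libraries. COX6A1 averaged 164 FPKM, and COX6A2, the heart and muscle form, was at 0.13 FPKM in D1_Co replicate 3 and at 0 elsewhere. COX7A2 and COX7A2L averaged 109 and 54.5 FPKM. The muscle form COX7A1 was at 0.112 and 0.115 FPKM in D3_Co and at 0 in both D3_Control libraries and all D1_Co and D2_Co libraries. COX6B1 far exceeded COX6B2, the testis form, which had 0.731 and 1.09 FPKM in D3_Co, against 0.24 and 0.317 FPKM in D3_Control. Its other values were 0.0465 and 0.171 FPKM in D1_Co and 0.32 and 0.22 FPKM in D2_Co, so the D3_Co pair was the highest. COX7B averaged 142 FPKM and COX7B2 was above 0 in 1 library at 0.0839 FPKM. COX8A averaged 250.1 FPKM and COX8C was at 0 throughout. NDUFA4 averaged 48.1 FPKM and NDUFA4L2, known as a gene induced by low oxygen, 0.114 FPKM. These low forms were not tested. Without the filter limma called COX6B2 and COX7A1 higher in D3_Co than in D3_Control, on values around or under 1 FPKM at unknown read depth. A value of COX6B2 had been moved in 1 library, and 30.9% of its exon bases are shared with AC020922.1. The 3 genes for the same c-ring protein of ATP synthase were all expressed, ATP5MC2 at 196 FPKM, ATP5MC1 at 140.3 FPKM and ATP5MC3 at 60.8 FPKM. ATP5MGL, a copy of the ATP5MG gene, averaged 0.0232 FPKM.

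RefSeq promoters on GRCh38.p14, from 250 bases before to 50 after the start, were found for 68 of the 83 tested members. They were searched on both strands for the exact letters GCGCA, any base, then GCGC, of NRF1, a factor known to bind promoters of respiratory genes, CCGGAAGT of the ETS family, which includes GABP, and AAGATGGCG of YY1. The NRF1 letters are nearly their own reverse complement, so 1 site can match on both strands and was counted once per promoter. NRF1 letters stood in 23.5% of member promoters, against 13.7% of the promoters of 9889 tested genes and 6.98% of all 27305 genes with a promoter. ETS letters stood in 17.6% of member promoters, against 10.4% of tested genes and 4.95% of all. YY1 letters stood in 13.2% of member promoters, against 4.89% and 2.14%. By complex, at least 1 of the 3 motifs stood in 13 of 32 promoters of complex I, 3 of 3 of complex II, 6 of 7 of complex III, 2 of 11 of complex IV and 8 of 13 of complex V. A match is a description of the letters only. The stretches below belong to members that were called in the comparisons that follow, one or more for each of complexes I to V, with matched letters in capitals. They are read 5′ to 3′ on the gene's strand and lie upstream of the start: NDUFA12 at chr12:95003784-95003833 on the minus strand, SDHD at chr11:112086743-112086822, UQCRQ at chr5:132866568-132866615, UQCRH at chr1:46303631-46303678, COX5B at chr2:97646005-97646052 and ATP5F1C at chr10:7788135-7788176, with the genes after NDUFA12 all on the plus strand.
NDUFA12 (NRF1): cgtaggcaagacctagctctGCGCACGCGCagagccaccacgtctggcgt
SDHD (NRF1, then ETS): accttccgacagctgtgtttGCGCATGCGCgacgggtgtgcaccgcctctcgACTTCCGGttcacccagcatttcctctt
UQCRQ (ETS): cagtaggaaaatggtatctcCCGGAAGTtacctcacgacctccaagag
UQCRH (ETS): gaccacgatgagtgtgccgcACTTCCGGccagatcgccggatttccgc
COX5B (ETS): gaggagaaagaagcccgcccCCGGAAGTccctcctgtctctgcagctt
ATP5F1C (NRF1): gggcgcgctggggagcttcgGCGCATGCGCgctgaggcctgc

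D3_Co against D3_Control, the comparison matched by day, showed 8 members lower and 0 higher in co-culture. limma on log2(FPKM + 1), a scale that understates changes of low genes, with Benjamini-Hochberg adjustment over 12449 genes called 10.8% of all genes lower and 13.6% higher. The members called lower were 9.64% of those tested, near that background, while the absence of a higher call lay under it; at an unadjusted p under 0.05, 17 members were lower, or 20.5%, beside 17.8% of all genes, and 2 were higher, or 2.41%, beside 20.6%. The 8 genes were NDUFS3, NDUFA10 and NDUFA12 of complex I, SDHD of complex II, CYC1 and UQCRQ of complex III, and ATP5F1C and ATP5PF of complex V. In complex IV 0 of 12 tested subunits were called.

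NDUFS3, a core subunit of complex I on the electron path from NADH, had 52.2 and 46.8 FPKM in D3_Co, against 65.8 and 66.6 FPKM in D3_Control. Both co-culture libraries lay below both controls, and the means were 49.5 ± 3.81 FPKM in D3_Co and 66.2 ± 0.549 FPKM in D3_Control (SD, n = 2 each). Its log2 difference of -0.41 ± 0.06 (SE, limma adjusted p = 0.00447) was the largest fall of the 83, and 22.4% of its exon bases are shared with CELF1, KBTBD4 and PTPMT1. SDHD, a membrane anchor of complex II whose promoter stretch carries NRF1 and ETS letters, had 30.9 and 32.0 FPKM in D3_Co, against 43.1 and 37.2 FPKM in D3_Control. The 2 groups did not overlap, although the controls differed among themselves, and the log2 difference was -0.34 ± 0.09 (SE, limma adjusted p = 0.0279).

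CYC1, cytochrome c1, the haem protein that passes electrons to cytochrome c, had 90.5 and 88.7 FPKM in D3_Co, against 104 and 98.5 FPKM in D3_Control. The pairs did not overlap and the fall was small, -0.17 ± 0.05 on the log2 scale (SE, limma adjusted p = 0.0319). UQCRQ, a small subunit of complex III, had 20.7 and 19.5 FPKM in D3_Co, against 22.8 and 25.9 FPKM in D3_Control (log2 difference -0.26 ± 0.08, SE, limma adjusted p = 0.0457). ATP5F1C, the rotating gamma subunit of ATP synthase, was at 133 FPKM in both D3_Co libraries, against 156 and 148 FPKM in D3_Control (log2 difference -0.19 ± 0.05, SE, limma adjusted p = 0.0367). ATP5PF, part of the peripheral stalk, had 50.6 and 51.3 FPKM in D3_Co, against 59.3 and 61.3 FPKM in D3_Control (log2 difference -0.24 ± 0.05, SE, limma adjusted p = 0.0151). In each of these 3 genes both co-culture libraries lay below both controls. NDUFA12, an accessory subunit, had 60.7 and 65.5 FPKM in D3_Co, against 72.7 and 74.1 FPKM in D3_Control (log2 difference -0.22 ± 0.05, SE, limma adjusted p = 0.0292). The accessory subunit NDUFA10 had 9.16 and 11.1 FPKM in D3_Co, against 13.4 and 12.6 FPKM in D3_Control (log2 difference -0.33 ± 0.09, SE, limma adjusted p = 0.0373). Values of SDHD had been moved in 2 libraries, those of ATP5F1C and CYC1 in 5 and those of ATP5PF in 7, which can understate a difference. As in NDUFS3, other genes overlap 23.1% of the exon bases of ATP5PF, 20.8% of UQCRQ and 12.2% of SDHD. No overlap is listed for CYC1, ATP5F1C, NDUFA12 and NDUFA10.

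Several partners of these subunits in the same enzyme did not pass the test. In complex I the core subunit NDUFS8 was near the threshold, with 92.2 and 79.5 FPKM in D3_Co, against 97.4 and 107 FPKM in D3_Control (log2 difference -0.25, limma adjusted p = 0.0538). The core subunits NDUFS1, NDUFS7, NDUFV1 and NDUFV2 had log2 differences of 0.10, -0.12, -0.11 and 0.03. In complex II, SDHA, SDHB and SDHC had -0.03, 0.06 and 0.02 beside the call of SDHD. In complex III the Rieske iron-sulfur protein UQCRFS1 had -0.11, and the 2 core proteins UQCRC1 and UQCRC2 had 0.05 and 0.03. The alpha and beta subunits of ATP synthase, ATP5F1A and ATP5F1B, had -0.09 and -0.10. Whether called and uncalled partners differ from each other was not tested.

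**Figure D2:**
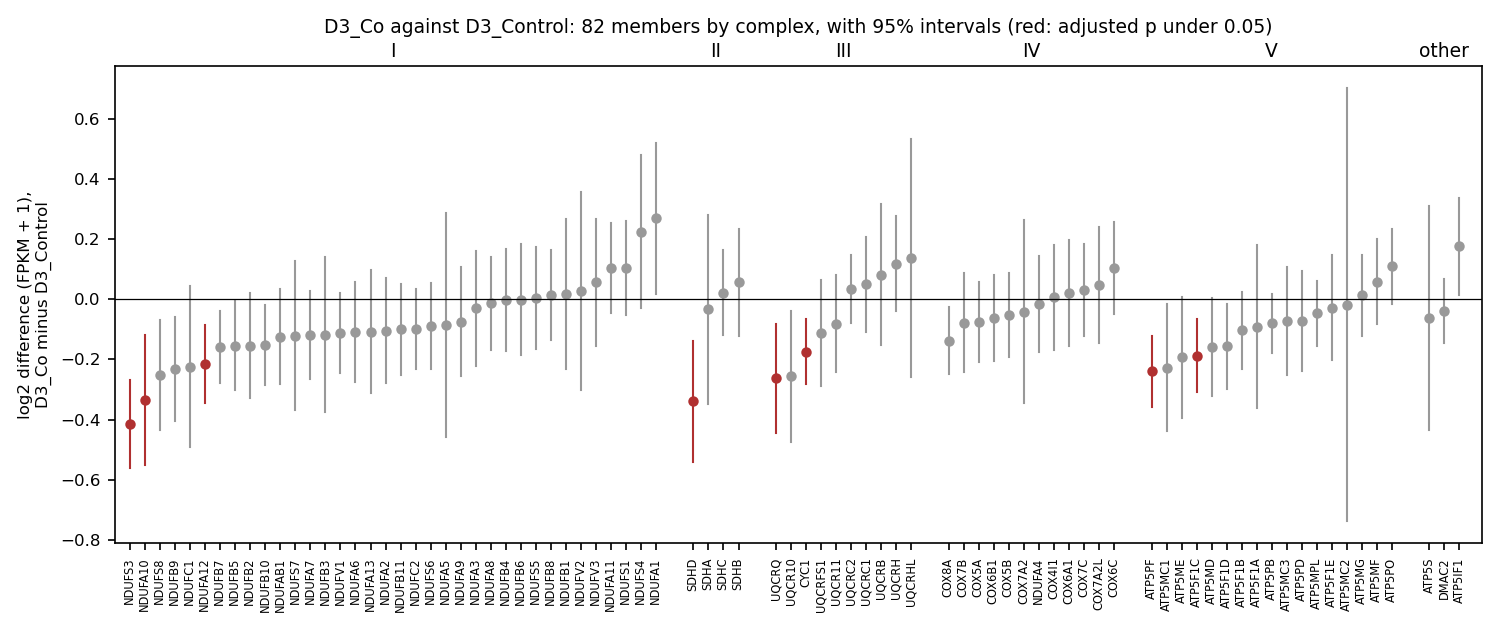
Log2 difference of D3_Co minus D3_Control on the log2(FPKM + 1) scale for 82 of the tested members, by complex, with limma 95% intervals (other, the 3 ATP5-named genes that are not subunits). Red marks an adjusted p under 0.05, which 8 members reach, all below 0, with 3 in complex I, 1 in complex II, 2 in complex III, 0 in complex IV and 2 in complex V.

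Across all 83 members the fitted difference between D3_Co and D3_Control was negative in 58, or 69.9%, beside 49.6% of all genes. Both D3_Co libraries lay below both D3_Control libraries in 34 members, or 41.0%, beside 32.1% of all genes, and above both in 9, or 10.8%, beside 33.4%. The median log2 difference was -0.10 in complex I and -0.08 in complex V, beside 0.00 over all genes tested. Medians of complexes II, III and IV were -0.01, -0.02 and -0.03, and changed sign in 6, 3 and 2 of 16 other ways of processing the values. ATP5IF1, the inhibitor that binds ATP synthase, had 153 and 160.0 FPKM in D3_Co, against 139.8 and 137 FPKM in D3_Control, a log2 difference of 0.18 that did not pass (limma adjusted p = 0.106). With 1 library left out at a time, 1 of the 8 was called again without D3_Co replicate 1 (beside 4 other members), 3 without D3_Co replicate 2, 2 without D3_Control replicate 2 and 2 without D3_Control replicate 3 (beside 1 other). NDUFS3 was called in each of these 4 fits, NDUFA10, NDUFA12, SDHD and UQCRQ in 1 each, and CYC1, ATP5F1C and ATP5PF in 0.

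Between co-culture days, D2_Co against D1_Co showed 20 members lower and 0 higher, where limma called 2.87% of all genes lower and 4.23% higher. The called members were 24.1% of the 83, and at an unadjusted p under 0.05 there were 46 lower, or 55.4%, beside 12% of all genes, and 1 higher, beside 14.5%. By complex, 5 of 37 tested genes were called in complex I, 0 of 4 in complex II, 1 of 10 in complex III, 5 of 12 in complex IV and 9 of 17 in complex V. Every one of these 20 calls, except that of NDUFA12, was lost whichever of the 4 libraries was left out: 1 member remained called without D1_Co replicate 2 and 0 without D1_Co replicate 3, D2_Co replicate 1 or D2_Co replicate 3.

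The largest fall was in NDUFA5, which had 4.69 and 3.71 FPKM in D2_Co, against 8.24 and 7.23 FPKM in D1_Co. Both day 2 libraries lay below both day 1 libraries, and the log2 difference was -0.75 ± 0.16 (SE, limma adjusted p = 0.0387). RefSeq lists 12 pseudogenes of NDUFA5, with which its reads may be confused. NDUFA12 had 59.6 and 59.8 FPKM in D2_Co, against 77.0 and 82.1 FPKM in D1_Co (log2 difference -0.41 ± 0.05, SE, limma adjusted p = 0.0143). NDUFV3, an accessory subunit of the NADH-binding module, averaged 35.3 ± 3.16 FPKM in D2_Co and 49.3 ± 2.82 FPKM in D1_Co (SD, n = 2 each), a log2 difference of -0.47 (limma adjusted p = 0.0305). The accessory subunits NDUFS6 and NDUFB10 fell by 0.27 and 0.25 on the log2 scale.

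UQCRH was the single call of complex III, with 138 and 149.6 FPKM in D2_Co, against 188 and 182 FPKM in D1_Co (log2 difference -0.36 ± 0.07, SE, limma adjusted p = 0.0290). The groups were well apart, and the ETS letters of its promoter are among the stretches printed above. In complex IV the calls were NDUFA4, COX5B, COX6C, COX7C and COX8A, all of them small nuclear-encoded subunits around the mitochondrially encoded core. COX5B had 144 and 155 FPKM in D2_Co, against 192 and 184 FPKM in D1_Co (log2 difference -0.33, limma adjusted p = 0.0279). COX8A had 219.6 and 222 FPKM in D2_Co, against 267 and 266 FPKM in D1_Co (log2 difference -0.27, limma adjusted p = 0.0247). Day 2 and day 1 libraries did not overlap for either gene. Values of COX7C had been moved in 7 libraries.

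In complex V the calls lay in the catalytic head, both stalks, the c-ring and other membrane subunits. In the catalytic head ATP5F1B averaged 338 ± 1.88 FPKM in D2_Co and 406 ± 12.9 FPKM in D1_Co (SD, n = 2 each), a log2 difference of -0.26 (limma adjusted p = 0.0366). In the central stalk ATP5F1C and ATP5F1D fell by 0.25 and 0.26 on the log2 scale. In the c-ring, ATP5MC1 had 116 and 118 FPKM in D2_Co, against 158 and 169 FPKM in D1_Co (log2 difference -0.48, limma adjusted p = 0.0290), with a moved value in 7 libraries. ATP5MC2, which encodes the same mature protein, had 189 and 108 FPKM in D2_Co, against 131 and 229.6 FPKM in D1_Co. Its libraries overlapped, and the highest of its 8 values was 2.22 times the lowest. Values of ATP5MC2 had been moved in 6 libraries and RefSeq lists 5 pseudogenes of it, so this spread rests partly on inferred placements. In the peripheral stalk ATP5PB, ATP5PD and ATP5PO fell by 0.19, 0.32 and 0.23 on the log2 scale. Of the small membrane subunits, ATP5ME fell by 0.38, with 114.9 and 113 FPKM in D2_Co, against 160.3 and 138 FPKM in D1_Co, and ATP5MD fell by 0.32. Exons of MYL5 cover 61.6% of ATP5ME's exon bases, and its values had been moved in 2 libraries. Those of ATP5F1B had been moved in 5 libraries, those of ATP5PB in 6 and those of ATP5F1D in 7.

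**Figure D3:**
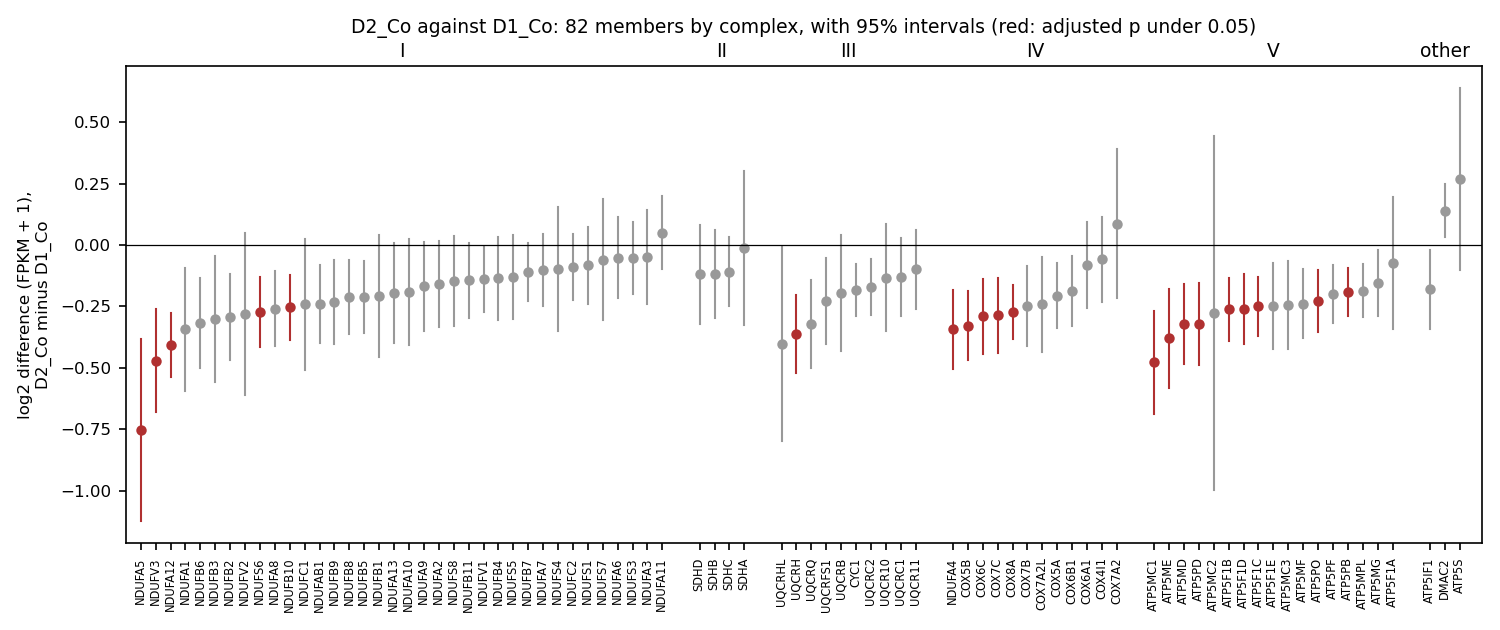
Log2 difference of D2_Co minus D1_Co on the log2(FPKM + 1) scale for 82 of the tested members, by complex, with limma 95% intervals (other, the 3 ATP5-named genes that are not subunits). 78 of them lie below 0 and the 20 with an adjusted p under 0.05, in red, are all lower.

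The members outside this set of 20 lay mostly on the same side. In D2_Co 79 of the 83 had a negative difference from D1_Co, or 95.2%, beside 47.6% of all genes. In 66, or 79.5%, both day 2 libraries were below both day 1 libraries, beside 26.5% of all genes. Median log2 differences were -0.19, -0.11, -0.19, -0.24 and -0.25 in complexes I to V, beside 0.01 over all genes. They were negative in all 16 other ways of processing the values, with the table as deposited read only for members with no moved value. The share of promoters with any of the 3 motifs was 52.9% among the 17 called members with a promoter and 45.1% among the 51 that were not called.

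Between D3_Co and D2_Co, 8 members were higher and 0 lower on day 3, where limma called 8.7% of all genes higher and 7.21% lower; at an unadjusted p under 0.05, 24 were higher, or 28.9%, beside 19.8% of all genes, and 1 was lower, beside 14.9%. The called share was 9.64%, near the background. Both day 3 libraries lay above both of day 2 in 42 members, or 50.6%, beside 35.4% of all genes, and below both in 4, or 4.82%, beside 27.3%. The difference was negative in 23, or 27.7%, beside 45.2% of all genes. NDUFA5 had 9.87 and 7.20 FPKM in D3_Co, against 4.69 and 3.71 FPKM in D2_Co (log2 difference 0.87 ± 0.16, SE, limma adjusted p = 0.0161). The day 3 libraries were both above those of day 2. UQCRH, with 197 and 178 FPKM in D3_Co, against 138 and 149.6 FPKM in D2_Co, rose by 0.38 on the log2 scale (limma adjusted p = 0.0149). COX7C, ATP5ME and NDUFV3 rose by 0.31, 0.37 and 0.35, and the inhibitor ATP5IF1 by 0.30. NDUFS5 rose by 0.27 and the core protein UQCRC2 by 0.25. The comparisons with day 2 share the D2_Co libraries. Without D3_Co replicate 1, 0 of the 8 were called again; 5 were without D3_Co replicate 2, and 1 each without D2_Co replicate 1 or 3.

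Against day 1, D3_Co had 14 members lower and 0 higher, or 16.9% lower, where limma called 10.5% of all genes lower and 16.1% higher; at an unadjusted p under 0.05, 27 were lower, or 32.5%, beside 16.8% of all genes, and 0 higher, beside 23.6%. The difference was negative in 66 of the 83, or 79.5%, beside 45.0% of all genes, and both day 3 libraries lay below both of day 1 in 39, or 47.0%, beside 29.0%. Fitted over the 8317 genes with a mean of at least 5 FPKM, limma called 1214 of them lower and 1229 higher in D3_Co. Of the 14, 8 were subunits of complex V. ATP5F1D, the delta subunit of the central stalk, averaged 106 ± 2.98 FPKM in D3_Co and 137 ± 8.04 FPKM in D1_Co (SD, n = 2 each), a log2 difference of -0.37 (limma adjusted p = 0.00602). ATP5MD had 82.4 and 71.0 FPKM in D3_Co, against 101.4 and 101.0 FPKM in D1_Co (log2 difference -0.40, limma adjusted p = 0.00748). The others in complex V were ATP5MC1, ATP5MF, ATP5PF, ATP5F1C, ATP5PB and ATP5MPL, with falls between 0.18 and 0.34 on the log2 scale. Values of ATP5F1D had been moved in 7 libraries, those of ATP5PB in 6 and those of ATP5MF in 2. Fits with 1 library left out used the same placements. NDUFA12 fell by 0.33 (limma adjusted p = 0.00659), so that its day 1 libraries at 77.0 and 82.1 FPKM were above all later co-culture libraries. Outside complex V the other calls were NDUFA8, the core subunit NDUFS8, UQCRQ, CYC1 and COX5B, with falls of 0.26, 0.26, 0.30, 0.20 and 0.23 on the log2 scale. ATP5F1D, ATP5MD and NDUFA12 were the calls kept in all 4 fits that left out 1 library. Of the 14, 3 were called again without D1_Co replicate 2 (beside 1 other member), 5 without D1_Co replicate 3 (beside 1), 6 without D3_Co replicate 1 (beside 3) and 5 without D3_Co replicate 2 (beside 2).

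**Figure D4:**
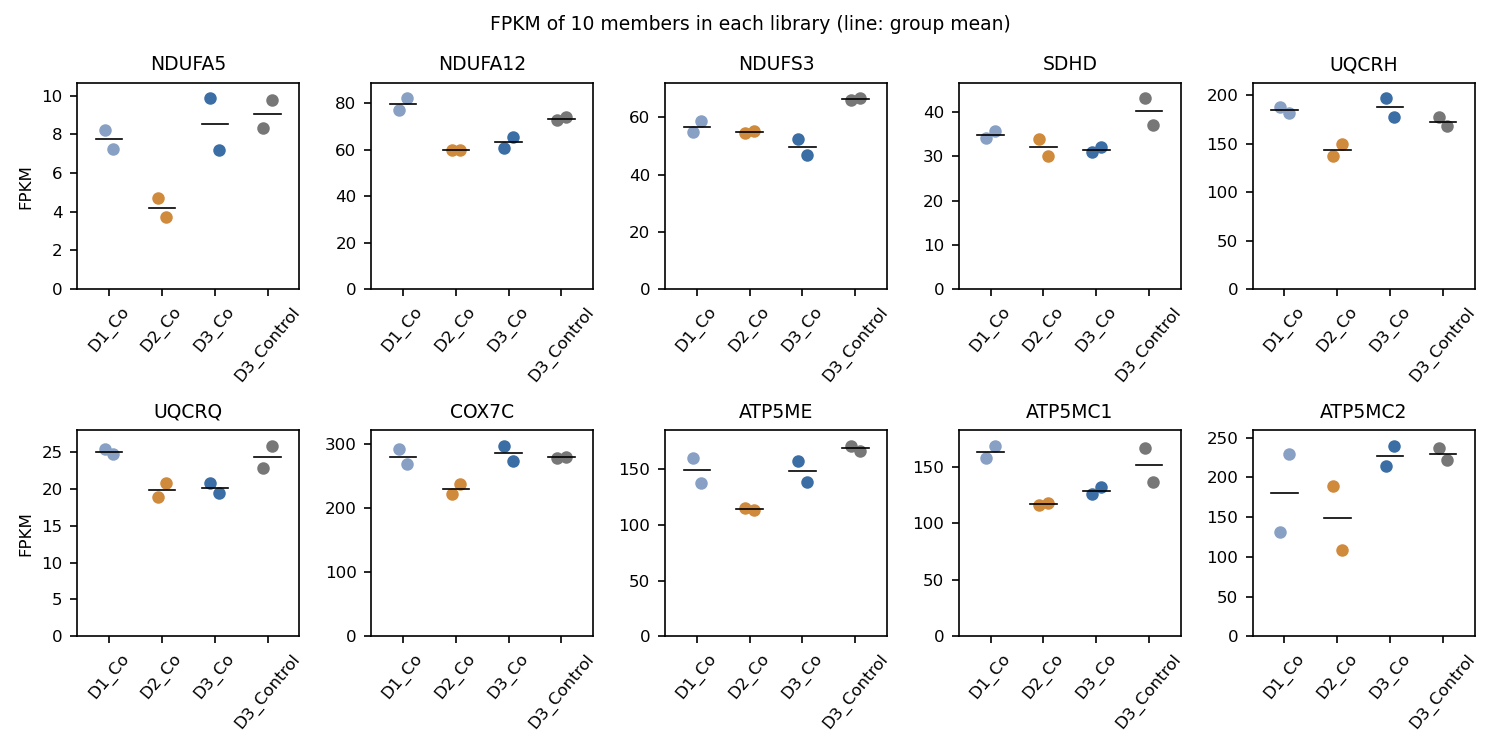
FPKM of 10 members in each library (points), with the group mean as a line, for D1_Co, D2_Co, D3_Co and D3_Control. NDUFA5, UQCRH, COX7C and ATP5ME are lowest in both D2_Co libraries, NDUFS3 is highest in D3_Control, and the libraries of ATP5MC2 overlap between D1_Co and D2_Co.

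The day 1 and day 2 co-cultures were also set against D3_Control, which differs from them in day as well as culture. D1_Co had 6 members higher and 1 lower, where limma called 10.6% of all genes higher and 12.3% lower. The higher calls were 7.23% of the 83, under that background, and the single lower call also lay under its own. At an unadjusted limma p under 0.05, 10 members were higher and 2 lower, beside 1980 and 2568 of all 12449 genes. The difference was negative in 32 members, or 38.6%, beside 56.2% of all genes, and both day 1 libraries lay below both controls in 17, or 20.5%, beside 37.5%. ATP5MF, a small membrane subunit of ATP synthase, had 323 and 308 FPKM in D1_Co, against 249 and 256 FPKM in D3_Control (log2 difference 0.32, limma adjusted p = 0.00984). The day 1 libraries were clearly the higher ones. NDUFA8, UQCRC1, ATP5MD, ATP5F1D and ATP5PO rose by 0.25, 0.25, 0.24, 0.22 and 0.18 on the log2 scale, and NDUFS3 fell by 0.22, with 54.9 and 58.6 FPKM in D1_Co, against 65.8 and 66.6 FPKM in D3_Control. Without D1_Co replicate 2 or 3 there were 2 higher calls, without D3_Control replicate 2 there were 0 and without D3_Control replicate 3 there was 1, and the fall of NDUFS3 was lost in all 4.

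D2_Co had 29 members lower and 0 higher than D3_Control, or 34.9% lower, where limma called 12.6% of all genes lower and 12.4% higher; at an unadjusted p under 0.05, 37 were lower, or 44.6%, beside 21.1% of all genes, and 1 was higher, beside 17.4%. The 29 were 11 of 37 in complex I, 1 of 4 in complex II, 6 of 10 in complex III, 5 of 12 in complex IV and 6 of 17 in complex V. NDUFA5 differed most, with 4.69 and 3.71 FPKM in D2_Co, against 8.33 and 9.77 FPKM in D3_Control (log2 difference -0.95 ± 0.16, SE, limma adjusted p = 0.00604). ATP5ME had 114.9 and 113 FPKM in D2_Co, against 171 and 167 FPKM in D3_Control (log2 difference -0.56, limma adjusted p = 0.00431). Neither gene's groups overlapped. NDUFB5, an accessory subunit of the membrane arm, and COX8A fell by 0.37 and 0.28 on the log2 scale; these 4 were the calls kept whichever library was left out. Of the 29, 7 were called again without D2_Co replicate 1, 11 without D2_Co replicate 3, 6 without D3_Control replicate 2 and 10 without D3_Control replicate 3, the last 3 fits each beside 1 other member. Over the 83, the difference was negative in 76, or 91.6%, beside 56.3% of all genes, and both day 2 libraries lay below both controls in 63, or 75.9%, beside 38.1%. In complex III the calls were UQCRFS1, UQCRC2, CYC1, UQCRH, UQCRQ and UQCR10, with falls between 0.16 and 0.31 on the log2 scale. Others in complex I included NDUFA10, NDUFAB1, NDUFB9, NDUFA12, NDUFB10, NDUFS3, NDUFS5 and NDUFB7, with falls between 0.19 and 0.41. SDHD of complex II fell by 0.31, and COX5A, COX7B, COX7C and NDUFA4 of complex IV by 0.26 to 0.29. In complex V, ATP5MC1, ATP5PD, ATP5F1C, ATP5F1B and ATP5PF fell by 0.18 to 0.37.

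Over the 4 groups together, limma's moderated F test called 38 of the 83 members, or 45.8%, where it called 41.9% of all genes. By complex the calls were 13 of 37, 1 of 4, 4 of 10, 7 of 12 and 12 of 17 in complexes I to V. D2_Co had the lowest of the 4 group means in 58 members, or 69.9%, where it was lowest in 23.6% of all genes. D3_Co was lowest in 18, or 21.7%, D3_Control in 5, or 6.02%, and D1_Co in 2, or 2.41%, beside 23.4%, 24.1% and 28.9% of all genes.

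Summed over its genes, complex I reached 2730 ± 41.3 FPKM in D1_Co, 2409.8 ± 51.8 in D2_Co, 2538 ± 73.5 in D3_Co and 2689 ± 11.9 in D3_Control (SD, n = 2 each). Complex II, the smallest, reached 135 ± 3.16 FPKM in D1_Co, 126 ± 6.06 in D2_Co, 133 ± 9.87 in D3_Co and 140.1 ± 1.86 in D3_Control. Complex III reached 728 ± 3.50 FPKM in D1_Co, 622 ± 9.76 in D2_Co, 693 ± 29.8 in D3_Co and 707 ± 9.84 in D3_Control. For each of the 3 complexes the day 2 libraries held the lowest mean. Complex IV reached 1971 ± 34.4 FPKM in D1_Co, 1708 ± 74.9 in D2_Co, 1879 ± 45.6 in D3_Co and 1929.7 ± 7.39 in D3_Control. Complex V reached 2640.4 ± 74.3 FPKM in D1_Co, 2215 ± 32.4 in D2_Co, 2406 ± 67.6 in D3_Co and 2537 ± 27.9 in D3_Control. The D2_Co sum was 0.883, 0.931, 0.854, 0.866 and 0.839 of the D1_Co sum in complexes I to V, with both day 2 libraries below both day 1 libraries in each. The D3_Co sum was 0.944, 0.952, 0.981, 0.974 and 0.948 of the D3_Control sum, and the libraries overlapped in complexes II and III.

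**Figure D5:**
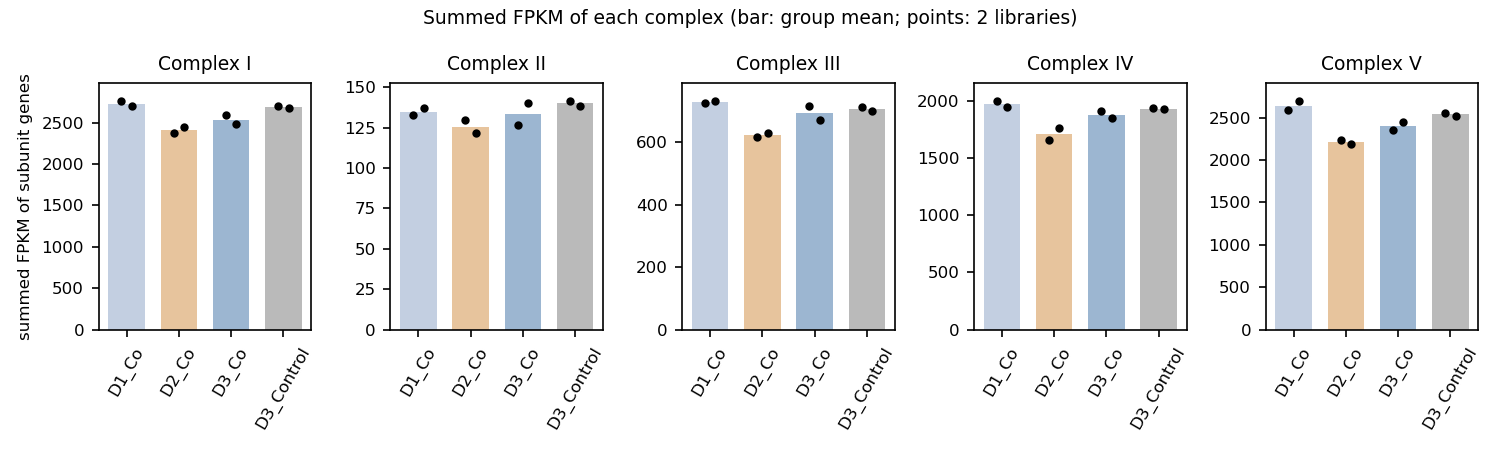
Summed FPKM of the member genes of each complex, in D1_Co, D2_Co, D3_Co and D3_Control, with bars for the mean and points for the 2 libraries, on axes that start at 0. D2_Co has the lowest mean in every complex, from 0.839 of D1_Co in complex V to 0.931 in complex II.

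Transcript length moved with the differences between days. The tested members had a median transcript length of 1082 bases, against 3212 bases in the other protein-coding genes tested. Among those other genes the median log2 difference of D2_Co minus D1_Co was -0.13 for 240 genes of up to 800 bases, -0.08 for 1184 genes of 800 to 1500 bases, -0.02 for 3928 genes of 1500 to 3000 bases and 0.04 for 6155 longer ones. In the members the corresponding medians were -0.21, -0.20, -0.21 and -0.19, over 25, 29, 16 and 13 genes. On day 2 against day 1 the member medians were alike in every length range and below those of other genes. For D3_Co minus D3_Control the members had -0.05, -0.11, -0.04 and -0.06, while the other genes lay at -0.01, -0.01, -0.01 and 0.01. For D3_Co minus D2_Co the members had 0.10, 0.05, 0.19 and 0.10 and the other genes 0.11, 0.05, 0.01 and 0.03, so in the 2 shorter ranges, which hold 54 of the 83 members, the medians were almost the same. For D3_Co minus D1_Co the members had -0.12, -0.11, -0.02 and -0.08 and the other genes -0.05, -0.04, -0.01 and 0.07. Against D3_Control, D2_Co gave -0.15, -0.16, -0.23 and -0.11 in members and -0.12, -0.06, -0.04 and -0.03 in other genes, and D1_Co gave 0.10, 0.02, 0.02 and 0.04 in members and 0.01, 0.03, -0.00 and -0.06 in other genes. The part of length in single calls was not tested.

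Other genes of the pathway were read from lists. Of 52 factors that assemble the complexes, 5 were lower and 1 higher in D3_Co than in D3_Control, with a median log2 difference of -0.09, beside 0.00 over all genes. The 9.62% called lower lay near the 10.8% of all genes, and the 1.92% called higher below 13.6%. COX11, which delivers copper to complex IV, had 6.23 FPKM in both D3_Co libraries, against 19.5 and 20.6 FPKM in D3_Control, a log2 difference of -1.54 ± 0.08 (SE, limma adjusted p = 0.000139). Its day 1 libraries had 16.7 and 19.6 FPKM and its day 2 libraries 20.9 and 20.8 FPKM, so both D3_Co values stood alone; 14.9% of its exon bases are shared with STXBP4 and TOM1L1. BCS1L, which inserts the Rieske protein into complex III, fell by 0.50 and COX14 by 0.43. ATPAF2, a factor for the ATP synthase head, fell by 0.33, while SDHAF4 of complex II rose by 0.66. Values of BCS1L had been moved in 4 libraries and those of ATPAF2 in 3. In D2_Co against D1_Co 2 of the 52 were higher and 2 lower, or 3.85% each, near the 4.23% and 2.87% of all genes, with a median of -0.10, beside 0.01. SCO1, another copper carrier of complex IV, rose by 1.14. It had 26.8 and 14.5 FPKM in D2_Co, against 8.49 and 8.37 FPKM in D1_Co, and its values had been moved in 5 libraries.

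Of 78 mitochondrial ribosomal protein genes, 19 were lower and 0 higher in D3_Co than in D3_Control, with a median of -0.13. The lower share was 24.4%, beside 10.8% of all genes. In D2_Co 12 were lower and 0 higher than in D1_Co, with a median of -0.15, and the lower share was 15.4%, beside 2.87% of all genes. MRPL1 of the large subunit had 14.7 and 13.9 FPKM in D3_Co, against 20.5 and 20.2 FPKM in D3_Control (log2 difference -0.49, limma adjusted p = 0.00165). Its values had been moved in 7 libraries. Of 12 tested regulators of mitochondrial transcription and biogenesis, 3 were lower in D3_Co than in D3_Control and 0 higher, or 25% lower, beside 10.8% of all genes, in a list this short. PPRC1, a coactivator of the PGC-1 family, had 37.2 and 36.9 FPKM in D3_Co, against 51.5 and 53.1 FPKM in D3_Control (log2 difference -0.49, limma adjusted p = 0.000886). The groups were far apart beside their spread; TFB2M and POLRMT, the transcription factor and polymerase of mitochondrial DNA, fell by 0.35 and 0.18. The 18 genes of electron and nucleotide carriers had 3 lower and 1 higher in D3_Co than in D3_Control, as had the 18 of the tricarboxylic acid cycle, with medians of -0.07 in both lists. That is 16.7% lower and 5.56% higher, beside 10.8% and 13.6% of all genes. The mitochondrially encoded subunits were not analysed here.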

How the data were processed

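An FPKM value per gene and library, in 8 libraries, was deposited by the authors. Per the submitters' processing notes, HISAT2 2.1.0, StringTie 1.3.3b and GRCh38.p12 were used; settings are not given in the sources used here. FPKM are not counts, so no count test was run. The only intervals drawn are those of limma on the log2(FPKM + 1) scale, and no floors were given. Groups, days and replicate numbers come from the library titles.

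In the deposited table many values stood on other genes' rows. The row order fits lines of gene number and value that were sorted as text without a separator and set next to D1_Co replicate 2's gene numbers. For each of the other libraries the allowed order closest to D1_Co replicate 2 was searched (absolute log2 difference capped at 4). Within-group correlations of log2(FPKM + 1) across genes, which are not independent replicates, went up to 0.996 to 0.997, a value the search itself raises. Differences on moved rows can be understated. The search was repeated with 10 perturbations (SD 0.5), and rows shifting by over 0.25 were marked unsettled, 561 of those tested.

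Genes with a mean of at least 1 FPKM and a name matching their gene number in RefSeq were tested (12449; 655 were left out by name). Values of log2(FPKM + 1) were fitted with limma 3.58.1 (R 4.3.3) in 1 model of 4 groups (eBayes with trend, 4 residual and 3.19 prior degrees of freedom), with Benjamini-Hochberg adjustment and calls under 0.05. The scripts were tested on simulated data. Names follow the table. The values of 1 tested member are not reported here, though it enters the counts and sums. Exons of other genes overlap those of 43 of the 83 tested members, so reads there may be shared. Same-numbered libraries did not deviate together (r between -0.03 and 0.04 across genes), so numbers were not used as pairs. Members, lists and named genes were chosen with earlier results of these data known: the text names members called in a comparison, grouped by complex, and further core subunits, paralogues and list genes of largest difference. Settings changed were the pseudocount, filter, scaling, realignment, rows used, trend, groups in the fit, replicate block and each library left out. Promoters come from RefSeq on GRCh38.p14.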

Additional observations from a re-analysis of the deposited data

How the results depend on the processing

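Of 1304 recomputed calls 728 passed the threshold again, 576 did not and 0 changed direction. The table as deposited was scored here only for members with no moved value, where 18 calls passed again and 32 did not. Over all members that table also held calls on the other side, which are given below. A pseudocount of 0.1, a mean of at least 5 FPKM and 2 alternatives chosen after seeing the data (another realignment reference, only settled rows) kept at least 85 of the 86 calls each. Counts below are of members called, and causes of the shifts were not tested. For D2_Co against D1_Co, lower calls over all genes were 357 of 12449 as reported and 117 of 23115 without a filter. They were 205 after quantile normalization, 34 with only the groups compared, 231 of 7968 on rows in place and 384 of 13630 as deposited. They also fell with any 1 library left out. Against D3_Control, D3_Co had 1350 lower as reported, 1095 of 23115 without a filter, 1360 after quantile normalization and 1015 with only the groups compared. At a mean of at least 5 FPKM, lower calls over all genes were 394 of 8317 for D2_Co against D1_Co. In the same setting they were 1267 for D3_Co against D3_Control and 1380 for D2_Co against D3_Control.

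For D3_Co against D3_Control (8 lower, 0 higher), lower calls were 4 without a filter, 5 after quantile normalization, 4 on rows in place, 1 in the table as deposited, 3 with only the groups compared, 4 without the intensity trend and 2 to 5 with 1 library left out, and higher calls were 2 without a filter and 3 as deposited. For D1_Co against D3_Control (6 higher, 1 lower), higher calls were 1 without a filter, 2 after quantile normalization, 1 without the trend and 0 to 2 with 1 library left out, and the lower call was lost (0) without a filter, after median-of-ratios scaling, as deposited, with only the groups compared, without the trend and with any library left out. For D2_Co against D3_Control (29 lower), lower calls were 15 without a filter, 18 after median-of-ratios scaling, 19 after quantile normalization, 16 on rows in place, 11 as deposited, 18 without the trend and 7 to 12 with 1 library left out, with 8 higher as deposited.

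For D2_Co against D1_Co (20 lower), lower calls were 1 without a filter, 3 after quantile normalization, 11 on rows in place, 6 as deposited, 1 with only the groups compared, 3 without the trend and 0 to 1 with 1 library left out, with 2 higher as deposited. For D3_Co against D2_Co (8 higher), higher calls were 5 as deposited, 2 with only the groups compared, 5 without the trend and 0 to 5 with 1 library left out, with 5 lower as deposited. For D3_Co against D1_Co (14 lower), lower calls were 6 after quantile normalization, 7 on rows in place, 7 as deposited, 9 with only the groups compared, 9 without the trend and 4 to 9 with 1 library left out, and higher calls were 2 without a filter, 1 after quantile normalization and 0 to 1 with 1 library left out. The F test's 38 became 23 without a filter, 24 after quantile normalization, 23 on rows in place, 20 as deposited and 22 without the trend.

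The labels do not say what libraries of the same number share. Fitted with a replicate block, D3_Co against D3_Control had 4 lower and 1 higher, and D1_Co against D3_Control 3 higher. D2_Co against D3_Control had 9 lower and D2_Co against D1_Co 0 lower. D3_Co against D2_Co had 2 higher, D3_Co against D1_Co 4 lower and the F test 11 calls. Over all genes the block left 20 lower calls for D2_Co against D1_Co and 769 for D3_Co against D3_Control.

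In the table as deposited the summed FPKM ratio of D3_Co to D3_Control was 1.68 in complex II, 1.09 in complex III and 0.872 in complex V (0.980 on rows in place), and that of D2_Co to D1_Co was 0.849, 0.737 and 0.657. Complexes I and IV did not move beyond their spread. Of 480 recomputed medians per complex, with the table as deposited again read only for members with no moved value, 19 changed sign. With 2 libraries a group and unknown read depth, small or low-level differences are not resolved.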
